A study of Mus musculus with 6 samples.

Results

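C1qa, C1qb, C1qc and C3 encode the start and the hub of the complement cascade, and were followed here through 6 coronal sections of the mouse brain. They were chosen by name, as 4 of 32285 genes in the deposited matrices, and every one of them was counted in every section. Spatial RNA sequencing was done with the Visium assay, in which tissue is laid over barcoded spots of a grid and captured transcripts are counted as unique molecular identifiers (UMIs). The mice were male C57BL/6J, an inbred strain with no transgene or treatment in the labels, aged 6 months (young), 18 months (middle) or 21 months (old). There were 2 sections of 16 µm per age, and because the labels give 2 males per age, each section was taken as 1 animal. The young sections shared slide 1 with middle 1 and old 1, whereas middle 2 and old 2 came from slide 2, so slide and age are partly confounded.

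C1q is the recognition molecule of the classical pathway. Its chains are the products of C1qa, C1qb and C1qc, which assemble together, and in the brain microglia are the main cells known to make them. Bound C1q recruits the proteases C1r and C1s, which cleave C4 and C2 to form the enzyme that cleaves C3, and fragments of C3 tag surfaces for phagocytes that carry complement receptors. In the brain, C1q and C3 are known for marking synapses for removal by microglia, and reactive astrocytes are a known source of C3.

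The spots of all sections were grouped by their transcripts with the members left out, and groups were named from marker genes. This gave 8 regions with 318 to 4397 spots each, namely isocortex, hypothalamus, thalamus, white matter, hippocampal formation, meninges (the brain surface), striatum, and choroid plexus with ventricle wall, while 1754 of 16741 spots stayed unnamed. White matter was led by the myelin genes Trf and Mal, and the choroid plexus and ventricle group by Ttr, Ecrg4 and Kl. Of the hypothalamus groups, 1 had only Pmch among its 10 leading genes as a marker, and 1 isocortex group was led by the lymphocyte genes Trbc2 and Ighm beside cortical genes. The meninges group held 1024 spots. In a finer grouping only 269 spots took that name, and a group of 759 with 7 isocortex and 5 meninges markers stayed unnamed. The meninges values may therefore include cortex at the surface, whose part was not measured. Total UMIs ran from 60938938 (old 2) to 77557934 (young 2) per section, and the hippocampal formation of young 1 held 63 spots against 185 to 292 in the other sections. A spot barcode marks a grid position, so libraries share barcodes by design (3109 of 3389 occur in more than 1 section). Levels are given as counts per 1000000 UMIs (CPM, scaled with TMM factors except where stated), and a spot holds several cells, so fewer cells of a type and less RNA per cell cannot be told apart.

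In GRCm38, the build of the mouse genome used for positions, the C1q genes lie side by side on the minus strand of chromosome 4, within 18675 bases. C1qb spans chr4:136880129-136886187, C1qc chr4:136889804-136893065 and C1qa chr4:136895917-136898803. C3 lies elsewhere, at chr17:57203970-57228136, also on the minus strand. The sequences upstream of C1qb and C1qc are shown because these genes moved together in the sections, and that of C3 because it followed another pattern. They come from RefSeq (GRCm38.p6), which gave an entry for 3 of the 4 members, C1qa not being among them. C1qb covers chr4:136886201-136886450, C1qc chr4:136893066-136893164 and C3 chr17:57228137-57228386, each on the minus strand and each ending before the annotated gene begins. The C1qc stretch is shorter, 99 bases, because GENCODE starts that gene upstream of the RefSeq start. Capitals mark letters that match a searched motif on either strand.
C1qb: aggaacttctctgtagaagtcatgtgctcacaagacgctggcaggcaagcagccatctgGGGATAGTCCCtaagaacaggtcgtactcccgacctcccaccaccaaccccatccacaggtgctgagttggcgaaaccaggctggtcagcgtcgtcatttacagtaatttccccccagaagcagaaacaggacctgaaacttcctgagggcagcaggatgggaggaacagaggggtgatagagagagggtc
C1qc: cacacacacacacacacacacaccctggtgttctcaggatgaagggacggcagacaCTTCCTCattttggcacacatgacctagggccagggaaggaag
C3: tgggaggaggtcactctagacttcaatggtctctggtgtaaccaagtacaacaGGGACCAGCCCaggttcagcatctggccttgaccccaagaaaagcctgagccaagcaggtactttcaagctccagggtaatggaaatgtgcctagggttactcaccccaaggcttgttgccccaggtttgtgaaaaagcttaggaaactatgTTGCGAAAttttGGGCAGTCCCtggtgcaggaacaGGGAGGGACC
The motifs searched in the 250 bases before the RefSeq start were GAGGAAG (bound by the myeloid factor PU.1 and other ETS factors), TTGCNNAA (C/EBP factors), TGCTGAC (MAF factors), the interferon-stimulated response element, and a loose NF-κB form. GAGGAAG was found for C1qc, on the strand opposite the gene and 194 bases before the start, and is held by 10.6% of 32851 promoters of the same length. TTGCNNAA was found for C3, 45 bases before the start, and is held by 9.56% of promoters. The NF-κB form was found for all 3 genes, mostly at overlapping places on both strands. The C3 match 10 bases before the start was on the strand of the gene only. The C1qc matches, 40 and 41 bases before the RefSeq start, lie outside its printed stretch. This form is held by 45.8% of promoters, so it hardly separates these genes from others. The interferon element and TGCTGAC, held by 2.98% and 3.81%, had no match in these windows. A match is a description of letters only.

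Per UMI, C1q transcripts were most frequent in white matter. White matter spots were shallow, with a median of 11444 UMIs against 28618 to 41789.5 in the isocortex groups. The order per spot can therefore differ from the order per UMI. In young 1, 1744 C1q UMIs fell on 279 white matter spots and 505 on 47 spots of the choroid plexus and ventricle group. Summed over the 3 genes, the white matter level was 932 ± 372 CPM (SD, n = 6 sections), against 163 ± 15.9 in isocortex, the lowest region. Between them lay the choroid plexus and ventricle group with 411 ± 123, striatum with 315 ± 65.4, meninges with 303 ± 24.8, hippocampal formation with 255 ± 35.2, hypothalamus with 250 ± 43.7 and thalamus with 237 ± 50.6 CPM. White matter was higher than the next region in 6 of 6 sections, as were meninges against hippocampal formation and thalamus against isocortex. Each of these steps had p = 0.03125, the smallest that an exact sign-flip test over 6 sections can give (two-sided, BH-adjusted p = 0.0729 over 7 steps). The choroid plexus and ventricle group exceeded striatum in 5 of 6 sections (exact p = 0.0625, adjusted p = 0.109). The steps from striatum to meninges (higher in 4 of 6 sections), hippocampal formation to hypothalamus (3 of 6) and hypothalamus to thalamus (4 of 6) were within their spread, with exact permutation p of 0.75, 0.719 and 0.188.

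**Figure D1:**
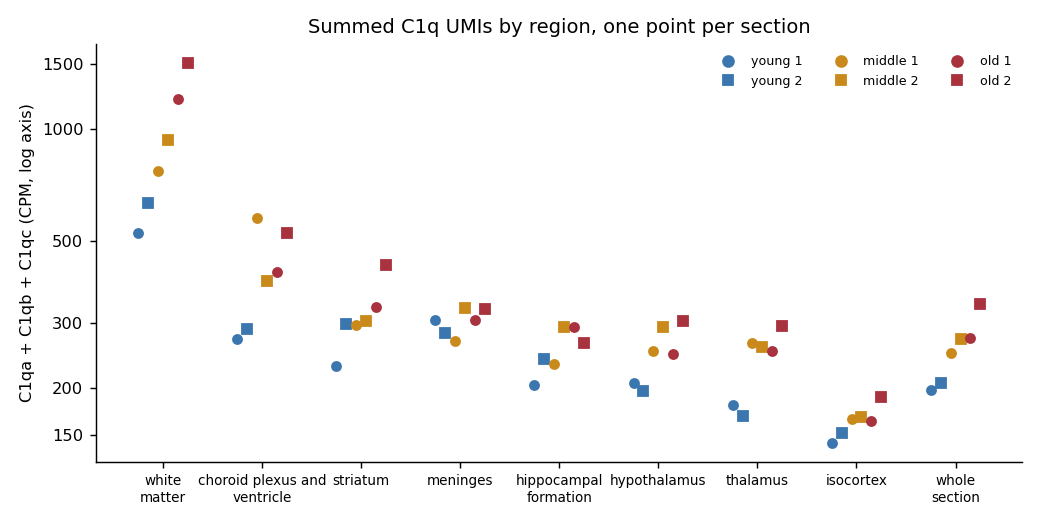
Summed C1qa, C1qb and C1qc level in CPM (log axis) for each region and the whole section, 1 point per section, coloured by age, with circles for replicate 1 and squares for replicate 2. White matter lies above every other region in each section and runs from 527 CPM in young 1 to 1512 in old 2, while meninges stay between 268 and 330 CPM.

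White matter held a growing part of all C1q UMIs. It made up 8.21% to 11.3% of the spots and 4.21% to 5.86% of all UMIs of a section, with no order by age in the spots. Its part of the C1q UMIs was 11.9% and 13.5% for young, 15.4% and 14.5% for middle, and 19.9% and 26.5% for old sections. Isocortex, with 23.9% to 29.8% of the spots, held 29.5% and 28.7% of C1q UMIs at 6 months and 21.6% and 18.7% at 21 months. The 3 ages did not overlap for white matter.

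Most white matter spots held a C1q transcript at every age. Thinned to 5000 UMIs a spot, 82.1% and 88.2% of white matter spots had at least 1 C1q UMI in young, 93.2% and 94.6% in middle and 96.3% and 98.9% in old sections, a mean difference of 12.4 percentage points between old and young. Unthinned, with a median of 11444 UMIs a spot, the shares were 92.8% and 94.0% in young and 99.0% and 98.6% in old sections. In isocortex the thinned share was 46.0% to 55.1%. Unthinned, with deeper spots, it was 96.2% to 98.3%, and in both young sections (97.4% and 97.1%) it lay above that of white matter.

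C1qa, the gene of the A chain, was read at 184.5 and 205.0 CPM in young, 272.2 and 328.7 in middle, and 410.1 and 549.7 in old white matter. Old sections were 2.46-fold the young by group means, and no section of one age reached the range of another. The log2 fold change of old against young was 1.3 ± 0.13 (SE, edgeR adjusted p = 4.99e-05). C1qb stood at 186.3 and 251.1 CPM in young, 280.0 and 360.7 in middle and 467.0 and 555.1 in old white matter, again in order of age without overlap. Its log2 fold change was 1.23 ± 0.17 (edgeR adjusted p = 0.00524). C1qc was read at 155.8 and 178.1 CPM in young, 222.0 and 246.3 in middle and 332.2 and 406.9 in old white matter, with the ages separate as for the other chains. Its log2 fold change was 1.15 ± 0.11 (edgeR adjusted p = 8.62e-08). Thus 3 of 4 members rose from 6 to 21 months in white matter, where 1.62% of 12662 tested genes were called higher. The groups of old and young did not overlap for these 3 genes, nor for 22% of all genes with old higher, and the shares of genes so separated were 22.2% for middle over young and 21.5% for old over middle. All 3 were called under every alternative tried, with log2 fold changes from 0.99 to 1.5, slide as a block included (1.11, 1.07 and 1.03 for C1qa, C1qb and C1qc). Within slide 1 the C1q sum went from 527 and 634 CPM (young) through 774 (middle) to 1209 (old), and within slide 2 from 936 (middle) to 1512 (old).

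**Figure D2:**
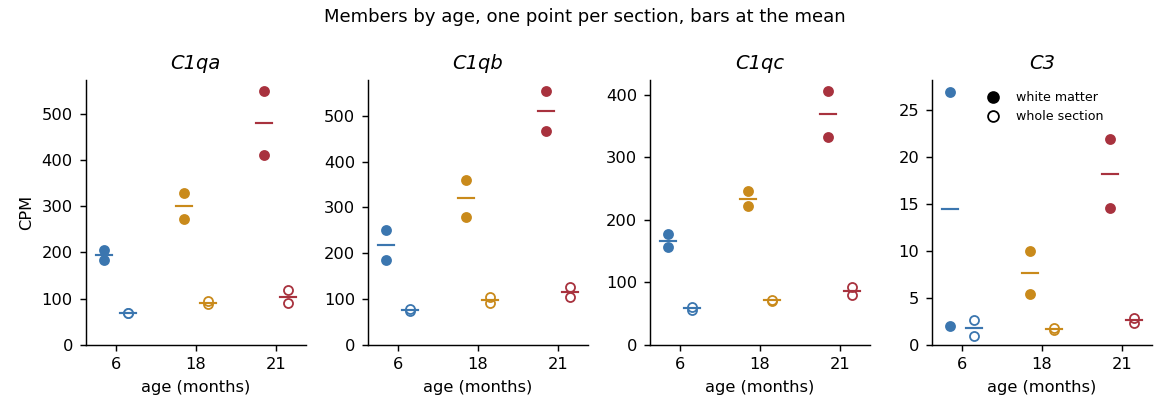
Level of each member in CPM against age in months, 1 point per section, filled for white matter and open for the whole section, with a bar at the mean of 2 sections. The C1q genes step up with age in white matter, from 195 to 480 CPM by group means for C1qa, whereas C3 in white matter has 1 high young section at 26.9 CPM and 1 low one at 2.0 CPM.

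Both age steps contributed in white matter, with less certain calls. From young to middle, C1qa (log2 fold change 0.62 ± 0.14, edgeR adjusted p = 0.0211) and C1qc (0.49 ± 0.11, 0.0105) rose, while C1qb (0.55 ± 0.17, 0.149) did not pass the threshold. That made 2 of 4 members in a comparison in which 1.87% of genes were called higher. From middle to old, C1qa (0.68 ± 0.13, edgeR adjusted p = 0.0401) and C1qc (0.66 ± 0.10, 0.00193) rose and C1qb (0.68 ± 0.16, 0.177) missed the threshold, against 0.308% of genes called higher. No C1q gene was called from young to middle with slide as a block, without young 1 or without middle 2, and none from middle to old without middle 1 or without old 2. In the middle sections 3 of 7 neuron markers were also called higher and 3 of 7 oligodendrocyte markers lower than in young white matter, and their part in these values was not tested.

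The rise in white matter was larger than elsewhere. In a fit with section as a block, the old against young change in white matter exceeded that in all other spots by 0.89 ± 0.09 for C1qa, 0.80 ± 0.09 for C1qb and 0.74 ± 0.09 for C1qc on the log2 scale. The edgeR adjusted p-values were 8.68e-18, 1.12e-13 and 6.58e-12, and 0.835% of 16775 genes had a larger rise in white matter at the same threshold. The difference for C3 was −0.03 ± 0.68 (edgeR adjusted p = 1). The 3 C1q calls held without each section in turn, with DESeq2 and with white matter taken as the top decile of each section's spots by myelin share.

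**Figure D3:**
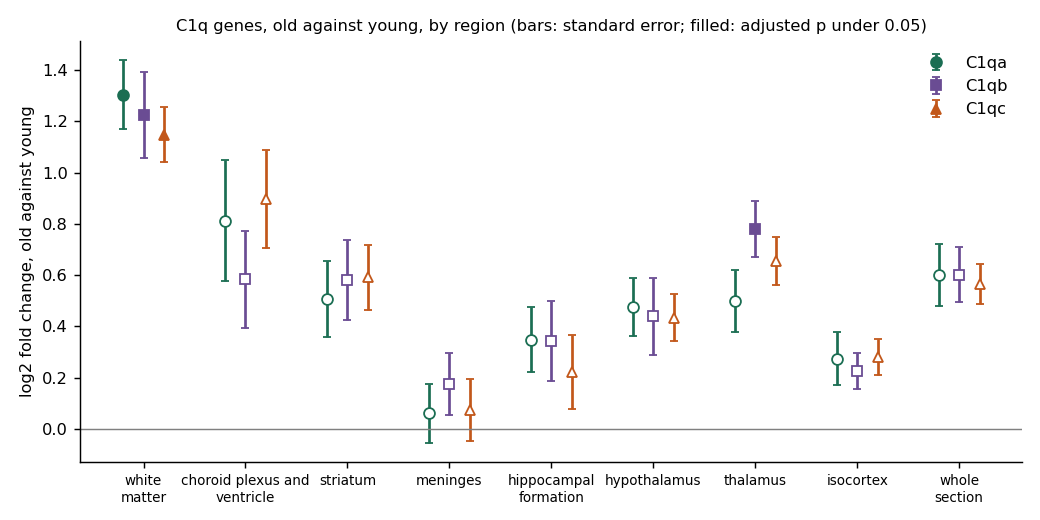
Log2 fold change of old against young for C1qa, C1qb and C1qc in each region and the whole section, with standard errors, filled where the edgeR adjusted p was under 0.05. The white matter values, 1.15 to 1.3, stand above the others, and the meninges values, 0.06 to 0.17, are the lowest of the regions.

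The same gradient was seen without region names, when the spots of each section were cut into deciles by their share of myelin UMIs (plain CPM, no TMM factors). In the decile with least myelin the summed C1q level was 151 CPM in young and 163 in old sections by group means, a ratio of 1.08. The ratio was 1.31 in the fifth decile, 1.68 in the eighth and 2.31 in the decile with most myelin, where the level was 592 CPM in young, 827 in middle and 1366 in old sections. The summed level of 14 homeostatic microglia genes was 275 and 284 CPM in the first decile of young and old sections, and 692 and 1068 in the last, ratios of 1.03 and 1.54. The deciles of a section share its library, and no test was made over them.

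**Figure D4:**
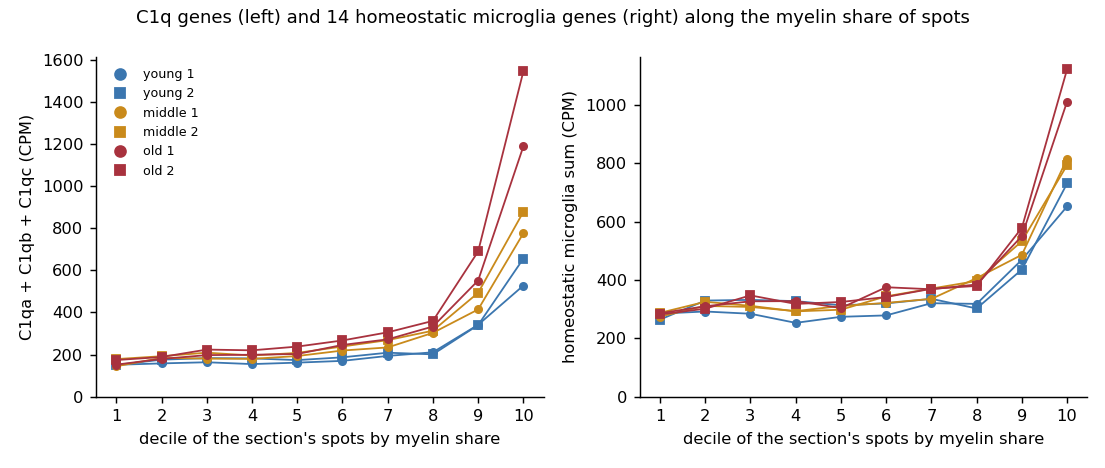
Level in CPM of the 3 C1q genes (left) and of 14 homeostatic microglia genes (right) in each decile of a section's spots, ordered by myelin share, 1 line per section. The lines of the 3 ages run close together at low myelin and part at the last deciles, where the C1q sum reaches 1188 and 1544 CPM in the old sections against 528 and 656 in the young.

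Outside white matter the C1q genes were higher in most old sections but rarely passed the test. In thalamus, C1qb stood at 68.0 and 61.6 CPM in young, 99.1 and 99.7 in middle and 101.1 and 121.3 in old sections, and the old lay above the young, as for 18.1% of genes. It rose by 0.78 ± 0.11 on the log2 scale (edgeR adjusted p = 0.0448), as 1 of the 3 members tested there, where 0.0362% of genes were called higher. The call was lost under 8 of 11 alternatives, with adjusted p-values from 0.000805 with DESeq2 to 0.417 without old 2. Thalamic C1qc (0.65 ± 0.10, edgeR adjusted p = 0.0524) and C1qa (0.50 ± 0.12, 0.613) were not called.

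In the other 6 regions edgeR called 0 members from young to old. The log2 fold changes of the C1q genes were 0.58 to 0.90 in the choroid plexus and ventricle group, 0.51 to 0.59 in striatum, 0.43 to 0.48 in hypothalamus, 0.22 to 0.35 in hippocampal formation, 0.22 to 0.28 in isocortex and 0.06 to 0.17 in meninges. The share of genes called higher was 0.034%, 0.097%, 0.0346%, 0%, 0.116% and 0.0465% in that order. At an unadjusted p under 0.05, all 4 members passed in the choroid plexus and ventricle group, 3 each in striatum, hypothalamus and isocortex, 1 (C1qa) in hippocampal formation and 0 in meninges. The share of all genes under that threshold was 6.28% in the choroid plexus and ventricle group, 9.47% in striatum, 7.7% in hypothalamus, 11.4% in isocortex, 3.79% in hippocampal formation and 5.69% in meninges. DESeq2 called 0 members in each of these 6 regions. In meninges the summed C1q level overlapped, with 306 and 282 CPM in young and 306 and 328 in old sections.

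Over whole sections, C1qa was read at 68.0 and 68.5 CPM in young, 88.2 and 94.0 in middle and 89.4 and 117.7 in old. Both old sections lay above both young ones, while old 1 fell between the middle sections. C1qb was 73.9 and 78.8 in young, 91.3 and 105.1 in middle and 104.3 and 127.3 CPM in old, and C1qc 56.4 and 60.0, 69.9 and 72.2, and 79.4 and 92.7 CPM. The old sections were above the young for all 3 C1q genes, as they were for 21.5% of 17673 genes. The log2 fold changes were 0.60 ± 0.12 for C1qa, 0.60 ± 0.11 for C1qb and 0.56 ± 0.08 for C1qc, with edgeR adjusted p-values of 0.158, 0.128 and 0.0529. So 0 of 4 members were called where 0.164% of genes were, although 3 had an unadjusted p under 0.05, as had 12.7% of genes, and DESeq2, which called 1.1% of genes, called the same 3. Slide 1 alone gave 0.39, 0.45 and 0.45.

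The other whole-section comparisons also called 0 of 4 members with edgeR. From young to middle the C1q genes differed by 0.42 (C1qa), 0.36 (C1qb) and 0.29 (C1qc) on the log2 scale, with 3 unadjusted p-values under 0.05 (7.82% of all genes were under it), 0.0679% of genes called, and 0 members called by DESeq2, which called 0.396% of genes. From middle to old they differed by 0.18, 0.24 and 0.28, with 1 unadjusted p under 0.05 (C1qc, and 2.04% of all genes), 0% of genes called and 0 members called by DESeq2. The trend over age was 0.04, 0.04 and 0.03 per month on the log2 scale (edgeR adjusted p = 0.0827, 0.0827 and 0.0598), where 0.724% of genes were called by edgeR, and DESeq2, with 1.96% of genes called, called the 3 C1q genes.

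The shares of the 3 chains varied by a few percentage points. Of the C1q UMIs in a whole section, C1qa made up 32.7% to 35.4%, C1qb 36.6% to 38.7% and C1qc 26.6% to 29.1%. These are shares of captured 3' ends, which compare sections but not the abundance of one chain with another. In white matter they ran from 32.3% to 36.4%, 35.4% to 39.6% and 26.3% to 29.6%. In the choroid plexus and ventricle group C1qb made up 42.4% and 40.2% in young, 33.7% and 36.4% in middle and 35.8% and 37.7% in old sections. In thalamus C1qa made up 36.7% and 33.9% in young and 30.9% and 32.5% in old sections, and C1qb 37.6% and 36.7% in young and 40.1% and 41.1% in old. In hippocampal formation C1qc made up 29.6% and 31.4% in young, 28.3% and 27.8% in middle and 28.9% and 29.0% in old sections. With 2 sections an age, exact permutation cannot go below p = 0.067, so no call could be made either way. Across 48 region-by-section sums, which share libraries, the log2 levels of the chains correlated with Pearson r of 0.986 to 0.988 with each other and of 0.597 to 0.611 with C3, given as a description.

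Among 9797 genes with a mean of at least 10 CPM, those most like the C1q sum over the 48 sums included Fcer1g (r = 0.983), Ctss (0.981), Tyrobp (0.970) and Mpeg1 (0.968). Fcer1g and Tyrobp encode signalling adaptors of myeloid receptors, Ctss a cathepsin and Mpeg1 a pore-forming protein of phagocytes. Of the listed homeostatic microglia genes, P2ry12, a purine receptor of resting microglia, had r = 0.559 and Fcrls r = 0.464.

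C1q was therefore set against 14 homeostatic microglia genes in the same spots. In white matter there were 0.807 and 0.891 C1q UMIs per homeostatic UMI in young, 0.946 and 1.11 in middle and 1.2 and 1.39 in old sections, with no overlap between ages. Old was 1.52-fold the young, with an exact permutation p of 0.0667, the smallest possible here, and an adjusted p of 0.2 over the 8 regions and whole sections. Over whole sections the ratio was 0.616 and 0.614 in young, 0.691 and 0.755 in middle and 0.743 and 0.877 in old (1.32-fold, exact p = 0.133, adjusted p = 0.2). In hypothalamus it was 0.612 and 0.638 in young, 0.692 and 0.787 in middle and 0.794 and 0.861 in old, again without overlap between ages (1.32-fold, exact p = 0.0667, adjusted p = 0.2). It was 1.43-fold in the choroid plexus and ventricle group, 1.31-fold in thalamus, 1.25-fold in striatum and 1.2-fold in isocortex (adjusted exact p from 0.2 to 0.257), and 1.04-fold in hippocampal formation and 1.01-fold in meninges (0.75 and 0.933). Whether the change in white matter differed from that in other regions was not tested.

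Part of the homeostatic and most of the disease-associated microglia markers also rose in white matter from young to old. Of the 14 homeostatic genes, 5 were called higher in old than young white matter, among them Fcrls, Cx3cr1, Olfml3 and Csf1r, and none lower. Their summed level was 653 and 712 CPM in young and 1007 and 1090 in old sections. Cx3cr1, the receptor for fractalkine, went from 23.9 and 27.4 CPM to 54.1 and 51.0 (log2 fold change 1.03 ± 0.15, edgeR adjusted p = 6.30e-05). Of 12 disease-associated microglia genes in the files, 9 were called higher and none lower, with summed levels of 4453 to 4720 CPM in young and 7409 to 8739 in old. Tyrobp, for example, changed by 1.5 ± 0.12, and Cst7, an inhibitor of cathepsins, by 5.53 ± 0.57 from 0.906 and 0.584 CPM. The median log2 fold changes of the lists were 0.45 and 1.76, against 0.00 over all tested genes. Every one of them was counted in white matter, and how much of the C1q rise goes with them was not tested.

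Markers of other cells that can hold complement transcripts were also measured there. Of 9 perivascular macrophage markers, 3 passed the filter on low counts and 0 were called (edgeR, 0 with an unadjusted p under 0.05), and their summed level was 16.9 to 26.9 CPM in young and 15.8 to 32.2 in old white matter. Of 8 monocyte and neutrophil markers only Vcan passed the filter, a matrix gene that oligodendrocyte precursors also express, and it fell by 0.79 (edgeR adjusted p = 0.043). Of 10 astrocyte markers, Aldh1l1 and Gfap were called higher, and the summed level was 3495 and 3621 CPM in young and 4049 and 4617 in old white matter. Of 17 reactive astrocyte markers, Emp1, Gfap and Osmr were called higher, and the sum went from 1029 and 994 CPM in young to 1723 and 2427 in old white matter, 2.05-fold by group means. Both sums lay above the homeostatic microglia sum in 6 of 6 sections, but the lists hold different genes, with Gfap in both astrocyte lists. The order of such sums does not give amounts of cells, and the part of astrocytes in the C1q values was not tested.

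Among the other complement genes, those called higher in white matter were C4b and genes of complement receptors, and most genes tested were not called. Of 60 other complement genes listed, 30 were tested in white matter, 5 were called higher and 0 lower, where 1.62% of genes were called higher. Among the classical and lectin activation genes 3 of 16 were tested, and C4b, whose product is cleaved by the C1 proteases, rose from 159 and 139 CPM in young to 897 and 905 in old white matter, with 328 and 340 in middle (log2 fold change 2.60 ± 0.10, edgeR adjusted p = 1.89e-16). C4a is a near-identical copy, so the split of reads between them is uncertain. Masp1 (0.91 ± 0.41) and Colec12 (−0.24 ± 0.37) were not called. The alternative pathway had 1 of 3 genes tested, Cfp (properdin, −0.44 ± 0.32, not called), and none of 7 terminal components reached the filter.

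Receptors for complement fragments rose in part. Of 13 listed, 9 were tested and 4 called higher. C3ar1, the receptor for C3a, went from 3.93 and 5.26 CPM in young to 10.4 and 16.4 in old white matter (1.55 ± 0.31). Itgam (0.99 ± 0.21), Itgax (4.74 ± 0.53) and Itgb2 (1.59 ± 0.22) encode the chains of complement receptors 3 and 4, and Itgax started from 0.604 and 0.292 CPM. Itgax is also in the list of disease-associated microglia genes. Calr (0.20 ± 0.11) and C1qbp (−0.01 ± 0.12), which encode proteins that can bind C1q, were not called. Of 21 regulators 17 were tested and 0 called by edgeR, and Clu, a soluble inhibitor of the terminal complex, had 0.33 ± 0.10 (adjusted p = 0.0844). Of 21 relatives with a C1q domain, such as Cbln1 and C1qtnf4, 11 were tested and 0 called. Over whole sections 44 of the 60 complement genes were tested and 1, Itgax, was called higher, while C4b had 2.13 ± 0.24 (edgeR adjusted p = 0.12).

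C3 was scarce and followed another map. Whole young sections had 193 and 72 C3 UMIs, middle ones 116 and 135, and old ones 162 and 179, or 2.60, 0.927, 1.55, 1.77, 2.30 and 2.89 CPM in that order. The old and young ranges overlapped (log2 fold change 0.56 ± 0.45, edgeR adjusted p = 0.652), and the young sections lay further apart than the old. By region the choroid plexus and ventricle group led with 38.4 ± 12.6 CPM (SD, n = 6 sections), before white matter with 13.4 ± 9.59, hippocampal formation with 3.47 ± 6.82 and hypothalamus with 1.01 ± 0.51. The hippocampal mean rests on young 1 (17.3 CPM), the other sections being at 0.106 to 1.72 CPM, and hippocampal formation exceeded hypothalamus in 2 of 6 sections. Meninges (0.729), thalamus (0.645), striatum (0.429) and isocortex (0.170) were lower still, and young 1 and young 2 held 0 C3 UMIs in striatum. White matter exceeded hippocampal formation in 6 of 6 sections (exact sign-flip p = 0.03125, adjusted p = 0.219), and the choroid plexus and ventricle group exceeded white matter in 5 of 6 (exact p = 0.0625, adjusted p = 0.219).

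In the choroid plexus and ventricle group C3 was 25.4 and 27.3 CPM in young, 53.7 and 29.6 in middle and 51.3 and 43.0 in old sections, from 37 to 83 UMIs. The old sections lay above the young, as for 18.2% of genes there, but the difference did not pass the test (0.86 ± 0.26, edgeR adjusted p = 0.519). When the spots of this group were split at the median of choroid plexus transcripts, C3 in plain CPM, without TMM factors, was higher among the spots with fewer of them in 4 of 6 sections. Old 1 had 101.6 against 17.4 CPM and young 1 had 50.1 against 10.5 CPM, but in young 2 (20.9 against 32.6) and middle 2 (17.9 against 37.4) the order was the other way. The genes most like C3 over the 48 sums were Spata24 (r = 0.925), Lamp2 (0.917), Ggh (0.916), Foxj1 (0.915), the master regulator of motile cilia, and Pgpep1 (0.914).

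In white matter C3 stood at 26.9 and 2.04 CPM in young, 5.37 and 9.94 in middle and 14.6 and 21.8 in old sections. Young 1 was the highest of all 6 and young 2 the lowest, so young and old overlapped. The log2 fold change was 0.36 ± 1.10 (edgeR adjusted p = 0.95). It was 3.14 without young 1, with an edgeR adjusted p of 1.59e-06, and −0.55 without young 2. With white matter taken as the top decile of spots by myelin, where the young 1 section held 18 C3 UMIs and young 2 held 12, it was 2.24 ± 0.29 and called. The direction and the call therefore rested on 1 section and on where the border of white matter was drawn.

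The C3 UMIs of young 1 lay in few spots. Of its 89 white matter UMIs, 74 were in 5 of 279 spots, with up to 29 in 1 spot, and 24 of its 36 UMIs in the hippocampal formation were in 3 of 63 spots. Middle 1 and middle 2 each had 1 white matter spot with at least 5 C3 UMIs, holding 6 of 20 and 7 of 32 UMIs. In the old sections no white matter spot held more than 4, and the 46 and 80 UMIs were spread over 35 and 56 of 291 spots each. Spots with at least 1 C3 UMI made up 6.09% and 2.22% of white matter spots in young sections. They made up 5.76% and 8.70% in middle and 12% and 19.2% in old sections. Exact Clopper-Pearson 95% intervals were 3.59% to 9.58% in young 1 and 0.895% to 4.51% in young 2. They were 8.52% to 16.3% in old 1, overlapping young 1, and 14.9% to 24.3% in old 2. These intervals cover counting error only. In isocortex the share was 0% to 1.2%, and there 0 of 760 spots in middle 1 allows a share of up to 0.395% by the limit of 3 counts, and of up to 0.484% by the exact interval. With each spot thinned to 5000 UMIs, which left out 6 to 27 white matter spots a section, the white matter shares were 3.36%, 2.08%, 2.11%, 4.05%, 5.58% and 9.43% in the order young to old. The old sections were the highest in that count and lay above both young ones, on 15 and 25 spots against 9 and 6. The exact intervals of old 1 (3.15% to 9.03%) and young 1 (1.55% to 6.28%) overlapped.

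**Figure D5:**
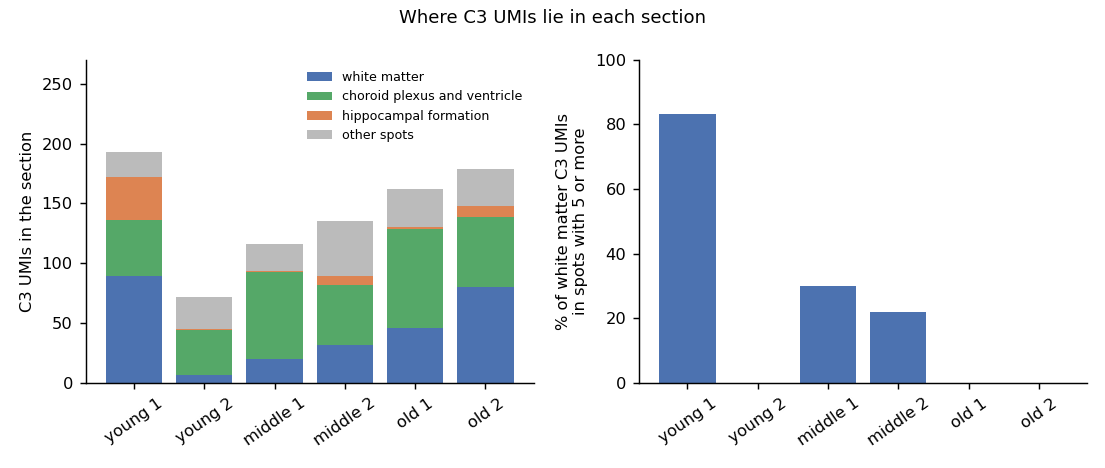
C3 UMIs of each section by region (left) and the percentage of white matter C3 UMIs that lay in spots with 5 or more of them (right). Young 1 has 89 UMIs in white matter and 36 in the hippocampal formation against 7 and 1 in young 2. Of the 89, 74 came from 5 spots. Middle 1 and middle 2 have 1 white matter spot each with 5 or more, holding 6 and 7 UMIs, and the old sections have none.

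The 8 spots of young 1 with at least 5 C3 UMIs differed from the other 334 white matter and hippocampal spots of that section in astrocyte genes and in an ependymal gene. They had 3100 against 363 CPM of Gfap, 1151 against 84.0 of Vim, 401 against 35.7 of Serpina3n and 485 against 97.8 of C4b (plain CPM). Ccdc153, a gene of ependymal cells, was 20.1 against 3.03 CPM, which in 8 spots rests on few UMIs. Prox1, a dentate granule cell gene, was 104 against 54.5, Mbp, a myelin gene, 5314 against 13935, and Ttr of the choroid plexus 983 against 950. C1qa was 180 against 135 CPM in them. The median depth was 31492.5 UMIs in these spots and 12673.5 in the others, and its part in these values was not tested. These spots were picked by their C3 count in 1 section, so the values are a description of that place and carry no test.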

How the data were processed

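Raw UMI counts per gene and spot were deposited by the authors, and per the file headers they came from version 1.3.1 of Space Ranger, while the submitters' processing notes list Space Ranger 3.1 and the build mm10. The annotation release and any spot filter of the authors are not given in the sources used here, and images and spot positions were not used. The 3' chemistry reads transcript ends, so levels of different genes are not per length.

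Spots under 500 UMIs were left out (2 in all). Clustering with scanpy 1.11.5 used 2000 variable genes without the members, the immune, microglia and complement lists, mitochondrial and haemoglobin genes, scaled per section, 30 principal components, 20 neighbours and Leiden resolution 0.8 (leidenalg 0.10.2). Of 21 clusters, 16 took a region's name, needing 3 of its markers among the 50 leading genes, 1 among the first 10 and 2 times the next region's. The ranking of leading genes was changed once after the first clusters had been seen and before the members were read. UMIs were summed per section and region and tested in edgeR 4.0.16 (quasi-likelihood, robust, with TMM factors and filterByExpr) on all 6 sections by age, which leaves 3 residual degrees of freedom. A gene was called where its two-sided p, Benjamini-Hochberg adjusted over all tested genes, was under 0.05. The interaction had section as a block. Ratios were tested by exact permutation over 90 assignments. Sections of one age differed beyond counting error (chi-square over degrees of freedom was 45.6, 32.6 and 24.0 for young, middle and old), and with 2 sections an age p-values rest on that spread. The fits were also run on counts simulated with the spread estimated here. Their outcome is not reported here, and no result rests on them.

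The members and lists were chosen with earlier results of these data known. Named genes were the members, the 4 genes of each list with most CPM, its 4 called genes of largest change, and the 5 genes most like the C1q sum or C3. Alternatives were DESeq2 1.42.0, RLE factors, other filters, replicate or slide as a block, only the groups compared, slide 1 alone, thinning, Leiden resolutions 0.5 and 1.2, the top decile of spots by myelin, and each section left out. Gene positions came from GENCODE vM21 (GRCm38). Some genes and 1 alternative of the C1q to homeostatic ratio are not reported here.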

Additional observations from a re-analysis of the deposited data

Results flagged for a closer look

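The age change of 3 members differed between white matter and the rest of the section by a test of the difference itself. Old against young, the log2 change was larger in white matter than in all other spots by 0.89 for C1qa, 0.80 for C1qb and 0.74 for C1qc, each called by edgeR over all tested genes, of which 0.835% had a larger rise in white matter at that threshold.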

How the results depend on the processing

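Of 29 results that count called members, 14 kept the same count under each alternative. The 3 of 4 called in white matter from young to old and the 3 of 4 in the interaction became 4 of 4, with C3 added, without young 1 and with the top myelin decile, and stayed at 3 under the other alternatives run. The others were as follows. In whole sections, old against young called 0 members, but 1 with no filter on low counts, 2 with the replicate block and 3 with DESeq2, and the trend called 0, but 1 with the replicate block and 3 with DESeq2. Thalamus, old against young, called 1, but 2 with DESeq2 or resolution 0.5, and 0 with the replicate block, slide as a block or resolution 1.2, and DESeq2 called 1 thalamic member in middle against young. Striatum called 1 at resolution 1.2. White matter, middle against young, called 0 with slide as a block, and old against middle called 1 at resolution 1.2 and 4 with the top myelin decile. Replicate numbers do not pair the sections by their labels, and deviations of same-numbered sections correlated at 0.0225, 0.135 and 0.234, so the block is only a number.

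With 1 section left out, counts ranged from 0 to 2 (whole section and hypothalamus, old against young, and choroid plexus and ventricle, middle against young), 0 to 1 (the trend, thalamus, hippocampal formation and choroid plexus and ventricle, old against young, and hippocampal formation and hypothalamus, middle against young), 0 to 3 (striatum, old against young) and 0 to 4 (white matter, middle against young and old against middle). The lone section left in a group is then assumed to vary like the others. In white matter the difference in spots with C1q, 12.4 points, was 3.62 at 10000 UMIs and 5.39 unthinned, where most spots already hold a C1q UMI.

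C3 changed sign most often. Leaving out 1 section gave log2 changes from −0.0070 to 1.48 (whole section, old against young), −0.65 to 0.84 (middle against young), −0.0098 to 0.096 per month (trend), −0.55 to 3.14 (white matter, old against young), −1.83 to 1.87 (white matter, middle against young), −0.79 to 2.17 (interaction), −5.51 to 2.69 (hippocampal formation) and −0.017 to 2.09 (hypothalamus). Without young 1 the interaction was 2.17 and without old 1 0.26, and middle against young in whole sections was 0.84 without young 1 and 0.01 without middle 1. White matter C3 was −0.037 with slide as a block, 1.22 with the top myelin decile in middle against young, and the interaction 0.53 with DESeq2 and 2.43 with the top myelin decile. In meninges C1qa ranged from −0.0027 to 0.13 and C1qc from −0.037 to 0.19 over sections left out, and both fell below 0 with slide as a block (−0.0094 and −0.032). Whole-section C1qa, old against middle, ranged from −0.027 to 0.37. The cause of these changes was not tested. C3 rests on 72 to 193 UMIs a section, which limits its comparisons.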
